A study of Mus musculus with 6 samples.

Results

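The genes examined here are 9 regulators of gonadal identity, Wt1, Nr5a1, Nr0b1, Dmrt1, Lhx9, Emx2, Cbx2, Six4 and Tcf21. They were taken by name, and the Entrez Gene identifiers of all 9 were found among the 20007 identifiers of the mouse count files. RNA of KM strain mouse cells had been sequenced (BGISEQ-500) in 3 groups of 2 libraries, 6 libraries in all. CiSCs were passaged embryonic fibroblasts that had received small-molecule compounds, not named in the labels, to turn them towards Sertoli cells. MSCs were Sertoli cells from testes at postnatal day 60, plated and cultured. MEFs were cultured fibroblasts of embryos at 13.5 days post coitum, the age that the labels also give for the CiSCs. The design sets the induced cells beside Sertoli cells and beside their fibroblast source. No group of passaged fibroblasts without compounds was analysed here, so compound, passage and culture effects cannot be told apart, and MSCs differ from the other groups in age and tissue as well as in cell type.

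The embryonic gonad forms as a ridge of coelomic epithelium, and its somatic cells become Sertoli or granulosa cells, the supporting cells of testis and ovary, or steroid-making interstitial cells. Wt1, Emx2 and Lhx9 are needed for the ridge to form and persist. Nr5a1 encodes steroidogenic factor 1, a nuclear receptor that drives gonadal and adrenal genes, and Nr0b1 encodes DAX1, a corepressor that binds it. Six4 acts in gonadal precursor cells upstream of Nr5a1 and of the testis-determining gene Sry. Cbx2 encodes a subunit of polycomb repressive complex 1 and is needed for testis determination, so it is a chromatin regulator rather than a sequence-specific factor. Tcf21, a basic helix-loop-helix factor of mesenchymal cells, restrains Nr5a1 in the early gonad, and Dmrt1 keeps postnatal Sertoli cells from taking on granulosa cell features.

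Libraries held 19294671 to 20418587 expected counts, estimated reads that need not be whole. Levels are in CPM, counts scaled by library size with TMM factors, so that 1 read stood for 0.0468 to 0.0543 CPM. Where a group had 0 reads, a fold is a lower bound against 3 reads over the group (0.0709 CPM in CiSCs, 0.0806 CPM in MSCs and 0.0769 CPM in MEFs), and with 1 to 3 reads the count ratio is given with its exact 95% interval. Both cover counting error only. Log2 fold changes carry ± 1 standard error and an adjusted p from the quasi-likelihood test of edgeR. The labels do not state whether paired libraries had separate animals or cultures behind them, so the p-values rest on a spread that may be technical. In bulk RNA, fewer cells of a type and less RNA per cell cannot be told apart.

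The 9 regulators fell into different patterns rather than moving together. Wt1 was higher in CiSCs than in MEFs but stayed well under its level in MSCs. Nr5a1, Tcf21, Dmrt1 and, at trace level, Nr0b1 had reads almost only in MSCs. Cbx2 and Six4 were higher in CiSCs than in both other groups, Emx2 was highest in MEFs, and Lhx9 was highest in MSCs and lowest in CiSCs. The plot of levels by library shows these patterns.

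**Figure D1:**
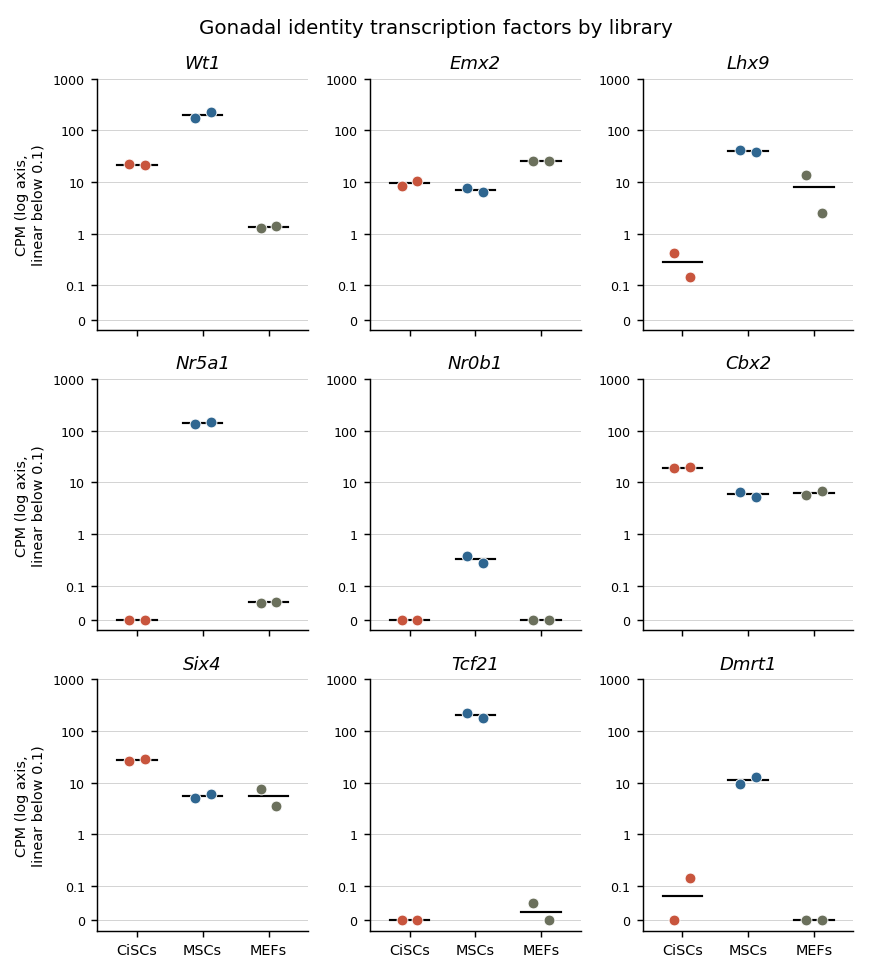
Level of each of the 9 regulators in CPM (y axis, logarithmic above 0.1 CPM and linear below it) in CiSCs, MSCs and MEFs; points are the 2 libraries of a group and bars their mean. Nr5a1 and Tcf21 lie above 130 CPM in both MSC libraries and at or near 0 elsewhere, while Cbx2 and Six4 are highest in both CiSC libraries.

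Of the 9 genes, 8 had enough counts to be tested and Nr0b1 had not. Between CiSCs and MEFs, 3 of the 8 were higher and 2 lower, with a median log2 fold change of 0.08 (1.62 with genes at 0 in a group at their bound or left out). Across all 15272 tested genes 40.9% were called, 19.6% higher and 21.3% lower, with a median of 0.00. Between MSCs and MEFs, 5 of the 8 were higher and 1 lower (median 4.77, or 4.76 with such genes at their bound), against 42.5% of all genes called, 22.5% higher and 20.0% lower (median 0.01). Between CiSCs and MSCs, 2 of the 8 were higher and 5 lower (median -5.17, also at the bounds), against 42.8% of all genes called, 17.7% higher and 25.1% lower (median -0.03). That last split over all genes depends on scaling: with 2697 higher and 3837 lower here, it was 4241 higher and 3211 lower when CPM were taken over library totals alone. A gene near 0 in CiSCs and MEFs passed the filter on low counts only through its level in MSCs and so had to differ, which holds for Nr5a1, Dmrt1 and Tcf21, and the counts of members are a description.

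**Figure D2:**
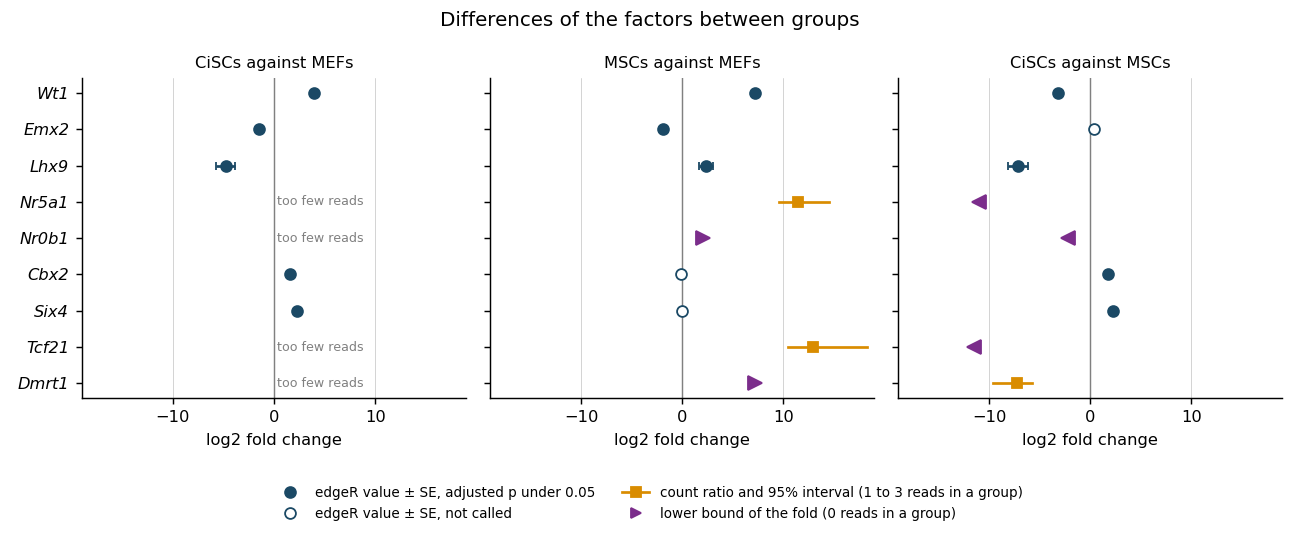
Log2 fold change (x axis) of each regulator in the 3 comparisons; circles are edgeR values ± SE (error bars shorter than the circle are hidden), squares are count ratios with 95% intervals where a group had 1 to 3 reads, and triangles are bounds where a group had 0. Wt1 lies at 3.99, 7.19 and -3.20, and Cbx2 and Six4 are at or near 0 only in MSCs against MEFs.

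Wt1 (Entrez Gene 22431), the zinc finger factor of the gonadal ridge and of Sertoli cells, stood at 22.4 and 21.1 CPM in the CiSC libraries, 175 and 224.5 CPM in the MSC libraries, and 1.32 and 1.40 CPM in the MEF libraries. The 3 groups did not overlap, and the order MSCs, CiSCs, MEFs held in every library. In CiSCs the level rose by a log2 fold change of 3.99 ± 0.20 over MEFs (adjusted p = 3.12e-05, edgeR), a 16.0-fold difference in means. It remained at 10.9% of the MSC mean (log2 fold change -3.20 ± 0.17, adjusted p = 3.09e-05, edgeR). MSCs exceeded MEFs by 7.19 ± 0.22 on the log2 scale (adjusted p = 1.03e-05, edgeR). Wt1 also marks mesothelium and podocytes of the kidney. Of 5 mesothelial markers, the same 3 had at most 3 reads in CiSCs and in MEFs. The summed level of the list was 2.00 to 2.34 CPM in CiSCs, 17.2 to 20.2 CPM in MSCs and 6.65 to 8.80 CPM in MEFs. Bnc1 made up most of it in CiSCs (2.03 CPM) and MEFs (6.98 CPM) but had 6 reads in MSCs, where Msln led (13.3 CPM). The summed level of 5 podocyte markers was 402 to 404 CPM in CiSCs, 529 to 580 CPM in MSCs and 236 to 287 CPM in MEFs, and the part of either cell type in the Wt1 levels was not tested.

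Emx2 (13797), a homeobox gene of the urogenital system, ran the other way. Its level was 8.30 and 10.4 CPM in CiSCs, 7.60 and 6.52 CPM in MSCs, and 26.0 and 25.5 CPM in MEFs. Both MEF libraries lay above all others. The gene was lower in CiSCs than in MEFs by -1.46 ± 0.18 (log2, adjusted p = 0.00119, edgeR) and lower in MSCs than in MEFs by -1.87 ± 0.19 (adjusted p = 4.28e-04, edgeR). CiSCs and MSCs, the neighbours in this order, had a difference of 0.41 ± 0.19 that did not pass (adjusted p = 0.125, edgeR). With CPM over library totals it did pass, at 0.65 (adjusted p = 0.0280, edgeR) where the median of all genes moved to 0.21. An antisense gene, Emx2os, overlaps Emx2 in the GENCODE annotation, and since the strand of the libraries is not given in the sources used here, reads of the pair cannot be told apart.

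Lhx9 (16876), a LIM homeobox gene of the ridge, stood at 0.426 and 0.145 CPM in CiSCs, 42.6 and 38.6 CPM in MSCs, and 13.5 and 2.50 CPM in MEFs. The groups did not overlap, but the MEF libraries differed by 5.40-fold, the widest gap within a group among the members with reads in every library. CiSCs were lower than MEFs by -4.79 ± 0.98 (log2, adjusted p = 0.00933, edgeR), on 12 reads in CiSCs. Without the second CiSC library the difference was -4.23 and did not pass (adjusted p = 0.0671), and without the first MEF library it was -3.14 (adjusted p = 4.85e-04). MSCs exceeded MEFs by 2.34 ± 0.67 (adjusted p = 0.0310, edgeR). That call was lost without the first or the second CiSC library (adjusted p = 0.0549 and 0.0542), without MSC library 1 or 2 (0.134 and 0.113) and with only MSCs and MEFs in the fit (0.0519), while the difference was 3.99 without the first MEF library and 1.59 without the second. CiSCs were lower than MSCs by -7.13 ± 0.96 (adjusted p = 0.00141, edgeR), at 0.702% of the MSC mean.

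Nr5a1 (26423) had 0 reads in both CiSC libraries, 137 and 150.0 CPM in the MSC libraries, and 1 read in each MEF library. Only the MSC libraries held more than 1 read. CiSCs were at least 2024-fold lower than MSCs (adjusted p = 9.96e-06, edgeR). MSCs exceeded MEFs with a count ratio of 2800 (95% interval 774 to 23100, adjusted p = 1.18e-05, edgeR). For CiSCs against MEFs, with 0 and 2 reads, the depth was too low to detect a difference (adjusted p = 0.153, edgeR). Nr5a1os overlaps the gene on the opposite strand, with the same limit as for Emx2.

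Markers of other cell types that use Nr5a1 were present in the MSC libraries. Of 7 Leydig cell markers, 4 stood at 1 CPM or more in MSCs, with a summed level of 2.58 to 3.72 CPM in CiSCs, 1360 to 1393 CPM in MSCs and 2.39 to 2.45 CPM in MEFs. Insl3, a Leydig cell hormone, averaged 62.5 ± 3.06 CPM in MSCs (SD, n = 2), whereas Cyp17a1, Lhcgr and Hsd17b3, which define androgen-making adult Leydig cells, had 1, 3 and 0 reads there. Mrap, the accessory protein of the ACTH receptor, averaged 170 ± 14.5 CPM and Cyp11b1, an enzyme of adrenal corticoid synthesis, 26.7 ± 2.14 CPM in the same libraries. The other 2 of 4 adrenal markers, Cyp21a1 and Mc2r, were at trace level there, with 7 and 10 reads. The part of such cells in the Nr5a1 level was not tested.

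Nr0b1 (11614), the X-linked corepressor of Nr5a1, had 0 reads in CiSCs, 7 and 5 reads in the MSC libraries (0.372 and 0.272 CPM) and 0 reads in MEFs. Reads were found in MSCs alone, at a trace level. CiSCs were at least 4.54-fold lower than MSCs, and MSCs at least 4.19-fold higher than MEFs. It failed the filter on low counts. Without that filter its adjusted p was 0.0472 for CiSCs against MSCs and 0.0513 for MSCs against MEFs (edgeR). Its nearest relative Nr0b2, the corepressor SHP, behaved likewise at somewhat higher levels, with 0 reads in CiSCs, 1.72 ± 0.126 CPM in MSCs (SD, n = 2) and 1 read in MEFs.

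The start of Nr0b1 is shown because the gene is a known target of Nr5a1 and had 12 reads in MSCs, where Nr5a1 had 5335. The RefSeq sequence covers 250 bases before to 50 after the start of the gene (GRCm38.p6, chrX:86191525-86191824, plus strand, 5′ to 3′), with capitals on AGGTCA, the half-site of nuclear receptors, and on TATAAA.
Nr0b1: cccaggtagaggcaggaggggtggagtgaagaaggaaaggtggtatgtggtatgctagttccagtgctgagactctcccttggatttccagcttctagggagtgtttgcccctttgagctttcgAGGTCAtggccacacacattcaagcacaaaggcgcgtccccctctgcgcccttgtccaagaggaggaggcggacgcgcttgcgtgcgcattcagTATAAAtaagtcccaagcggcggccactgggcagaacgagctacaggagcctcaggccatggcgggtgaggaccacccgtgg
AGGTCA begins 126 bases before the start and TATAAA 32 bases before it. Counting both strands, 16.3% of 32851 such windows over all genes hold AGGTCA and 13.6% hold TATAAA. Of the 9 regulators, 5 had such a sequence (Nr0b1, Lhx9, Emx2, Tcf21 and, with 2 starts, Six4), and AGGTCA was found in the window of Nr0b1 only.

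Cbx2 (12416) stood at 18.8 and 19.5 CPM in CiSCs, 6.43 and 5.27 CPM in MSCs, and 5.72 and 6.71 CPM in MEFs. The CiSC libraries lay above all others, and MSCs and MEFs overlapped. In CiSCs it rose by 1.62 ± 0.19 over MEFs (log2, adjusted p = 8.98e-04, edgeR) and by 1.71 ± 0.19 over MSCs (adjusted p = 5.98e-04, edgeR). MSCs and MEFs differed by -0.09 ± 0.19, which did not pass (adjusted p = 0.745, edgeR).

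Of 11 other subunit genes of polycomb repressive complex 1, 8 rose and 0 fell in CiSCs against MEFs, where 19.6% of all genes rose and 21.3% fell (median log2 fold change 0.92 against 0.00). Against MSCs, 6 rose and 1 fell, where 17.7% of all genes rose and 25.1% fell (median 0.53 against -0.03). Cbx6, another chromobox subunit, averaged 221 ± 13.2 CPM in CiSCs, 133 ± 7.72 CPM in MSCs and 102 ± 5.53 CPM in MEFs (SD, n = 2 each). The polyhomeotic gene Phc1 averaged 41.2 ± 2.59, 18.7 ± 0.559 and 19.6 ± 1.38 CPM in the same order. Cbx7 stood at 6.34 ± 0.418 CPM in CiSCs, 9.22 ± 0.207 CPM in MSCs and 2.45 ± 0.180 CPM in MEFs, and rose over MEFs in CiSCs by 1.36 ± 0.20 (adjusted p = 0.00247, edgeR) and in MSCs by 1.9 ± 0.20 (adjusted p = 5.59e-04, edgeR). Cbx8, which lies directly beside Cbx2 on chromosome 11, did not pass in any comparison. In MSCs against MEFs, 3 subunit genes rose and 1 fell, where 22.5% of all genes rose and 20.0% fell. The number of subunit genes called was 4 without the first CiSC library in either CiSC comparison, 4 or 3 without MSC library 1 or 2 and 3 without the second CiSC library for CiSCs against MSCs, and between 2 and 9 for MSCs against MEFs when a library was left out.

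Six4 (20474), a homeobox gene, stood at 25.8 and 28.9 CPM in CiSCs, 5.10 and 6.15 CPM in MSCs, and 7.46 and 3.55 CPM in MEFs. The CiSC libraries were again above all others, and the MSC libraries lay between the 2 MEF libraries. In CiSCs it rose by 2.31 ± 0.34 over MEFs (log2, adjusted p = 0.00250, edgeR) and by 2.28 ± 0.34 over MSCs (adjusted p = 0.00224, edgeR). MSCs against MEFs gave 0.03 ± 0.35 (adjusted p = 0.959, edgeR), a value that turned on the MEF libraries, at 0.64 without the first (adjusted p = 0.0324) and -0.42 without the second (adjusted p = 0.101).

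Relatives and partners of Six4 changed in CiSCs as well. Six6, a homeobox gene of eye development, had 1 read in CiSCs and 0 elsewhere. Six2, a gene of kidney progenitors, averaged 22.7 ± 0.478 CPM in CiSCs (SD, n = 2), against 3 reads in MSCs and 9 reads in MEFs. In the list of 11 relatives of Six4 and their EYA and DACH partners, 8 were tested, and 4 rose and 1 fell in CiSCs against MEFs, beside the same 19.6% and 21.3% of all genes (median log2 fold change 0.52 against 0.00 for all genes). The coactivator Eya2 had 4.61 ± 0.364 CPM in CiSCs, 0.970 ± 0.319 CPM in MSCs and 2 reads in MEFs, and Eya4 fell in CiSCs (4.04 ± 0.111 CPM) and in MSCs (2.69 ± 0.0351 CPM) against MEFs (17.3 ± 0.715 CPM). Against MSCs, 5 of the 8 rose in CiSCs and 0 fell, where 17.7% of all genes rose and 25.1% fell. Fewer were called when either MSC library was left out. Six2 passed the filter on low counts only through CiSCs and so had to be higher there, and the counts of this list are a description.

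The upstream start among the 2 RefSeq starts of Six4 is shown beside the gene's rise in CiSCs (GRCm38.p6, chr12:73113376-73113675, minus strand, 250 bases before to 50 after the start, 5′ to 3′), with capitals on CCAAT, found in 37.4% of all such windows on either strand.
Six4: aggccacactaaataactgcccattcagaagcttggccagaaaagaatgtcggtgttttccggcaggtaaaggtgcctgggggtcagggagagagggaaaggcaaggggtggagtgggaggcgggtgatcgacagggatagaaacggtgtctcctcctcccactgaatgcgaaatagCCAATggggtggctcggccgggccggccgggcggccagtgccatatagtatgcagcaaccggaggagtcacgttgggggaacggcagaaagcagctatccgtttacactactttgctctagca
The window had a GC content of 57.3% (median of all windows 52.7%) and a CpG ratio, observed over expected, of 0.640 (median 0.384). CCAAT was also found in the windows of Emx2 and Lhx9, which moved in other directions. The window of the other Six4 start overlaps this one and begins inside the same CCAAT, so the motif is cut off there.

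Tcf21 (21412) had 0 reads in both CiSC libraries, 224 and 181 CPM in the MSC libraries, and 1 and 0 reads in the MEF libraries. Almost all of its reads were in MSCs. CiSCs were at least 2858-fold lower than MSCs (adjusted p = 1.89e-05, edgeR), and MSCs exceeded MEFs with a count ratio of 7910 (95% interval 1420 to 312000, adjusted p = 2.47e-05, edgeR). Per kilobase of exon it was the highest of the 9 genes in MSCs. Tcf21 is a gene of mesenchymal cells, and markers of such cells were present throughout: the summed level of 7 fibroblast markers was 26428 to 26805 CPM in CiSCs, 38156 to 40960 CPM in MSCs and 18728 to 19902 CPM in MEFs. The collagen genes Col1a1, Col1a2 and Col3a1 carried these sums, and the other markers did not share an order of groups. Thy1 averaged 139 ± 9.67 CPM in CiSCs, 4.22 ± 0.102 CPM in MSCs and 777 ± 127 CPM in MEFs (SD, n = 2 each). Lum averaged 250.1 ± 16.0, 4.91 ± 1.10 and 34.2 ± 7.57 CPM in the same order. Dcn averaged 2375 ± 347, 551 ± 6.75 and 296 ± 13.7 CPM, and Pdgfra 473 ± 37.3, 547 ± 47.6 and 529 ± 146 CPM. Tcf21 itself had at most 1 read in any CiSC or MEF library. An antisense gene, Gm10824, overlaps it. Eya4, its direct neighbour on chromosome 10, was highest in MEFs, so the pair did not share a pattern.

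The start of Tcf21 is printed as that of a member with 0 reads in CiSCs and over 180 CPM in each MSC library (RefSeq, GRCm38.p6, chr10:22820094-22820393, minus strand, 250 bases before to 50 after the start, 5′ to 3′). Capitals mark AGATAA, a sequence that GATA factors bind, found on either strand in 11.2% of all such windows.
Tcf21: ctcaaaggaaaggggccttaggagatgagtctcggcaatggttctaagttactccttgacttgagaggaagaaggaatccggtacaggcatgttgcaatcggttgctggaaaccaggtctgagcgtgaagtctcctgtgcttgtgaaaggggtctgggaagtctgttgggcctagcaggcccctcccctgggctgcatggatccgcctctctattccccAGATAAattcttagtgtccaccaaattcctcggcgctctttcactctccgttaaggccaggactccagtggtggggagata
AGATAA begins 31 bases before the start and was found in none of the windows of Nr0b1, Lhx9, Emx2 and Six4. Only this form of the GATA sequence was sought, so those windows may hold other forms. The window had a GC content of 53.3% and a CpG ratio of 0.378, near the median of all windows.

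Dmrt1 (50796), a DM-domain factor of Sertoli and germ cells, had 0 and 3 reads in the CiSC libraries (0 and 0.140 CPM), 9.41 and 12.9 CPM in the MSC libraries, and 0 reads in MEFs. CiSCs were below MSCs with a count ratio of 157 (95% interval 53.5 to 766, adjusted p = 6.24e-04, edgeR), and MSCs were at least 145-fold above MEFs (adjusted p = 5.92e-04, edgeR). For CiSCs against MEFs the depth was too low to detect a difference (adjusted p = 0.212, edgeR). Germ cell markers, a list of 5 genes, summed to 0.163 to 0.239 CPM in CiSCs, 6.65 to 7.58 CPM in MSCs and 0.312 to 0.641 CPM in MEFs. In MSCs, Ddx4, Dazl and Sycp3 had 178, 63 and 22 reads, and Prm1 and Tnp1 had 2 and 0. The part of germ cells in the Dmrt1 level was not tested.

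Of the other genes of the DMRT family, Dmrt2 and Dmrta2 had their highest levels outside MSCs, and the rest had reads almost only in MSCs, as Dmrt1 did. Dmrt3, directly beside Dmrt1 on chromosome 19, had 0 reads in CiSCs, 19 in MSCs and 0 in MEFs. Dmrtb1 and Dmrtc2 had 4 and 3 reads in MSCs and 0 elsewhere. Dmrt2, in the same cluster as Dmrt1, averaged 1.23 ± 0.117 CPM in CiSCs, 0.322 ± 0.00491 CPM in MSCs and 20.6 ± 6.13 CPM in MEFs (SD, n = 2 each). Dmrta2 was highest in CiSCs (9.62 ± 0.835 CPM, against 0.214 ± 0.0727 CPM in MSCs and 0.643 ± 0.194 CPM in MEFs), rising over MEFs by 3.89 ± 0.32 on the log2 scale (adjusted p = 1.98e-04, edgeR). Dmrta1 stood at 4.82 ± 0.768 CPM in MSCs, with 2 reads in CiSCs and 1 in MEFs. Of these 6 relatives of Dmrt1, 3 were tested. In CiSCs against MEFs 1 rose and 1 fell, where 19.6% of all genes rose and 21.3% fell.

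Per kilobase of merged GENCODE M21 exons, which allows levels of different genes to be compared, the order of the 9 genes differed between groups. In CiSCs Cbx2 (4.50 CPM per kb), Wt1 (3.51), Emx2 (3.12) and Six4 (2.52) stood apart from the rest, at 0.0300 or less. In MSCs the order began with Tcf21 (86.2), Nr5a1 (33.8) and Wt1 (32.3), followed by Dmrt1 (4.31) and Lhx9 (4.28), and ended with Nr0b1 (0.178). In MEFs Emx2 led (8.58), before Cbx2 (1.46), Lhx9 (0.844), Six4 (0.507) and Wt1 (0.219). These lengths come from an annotation of GRCm38, not of the build used for alignment, so close neighbours in this order are not separated by it.

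Relatives of Lhx9 and Tcf21 were few in number above trace level. Lhx6, a LIM homeobox gene of the developing face and brain, averaged 9.52 ± 1.42 CPM in CiSCs, 0.839 ± 0.342 CPM in MSCs and 0.308 ± 0.00558 CPM in MEFs, and rose in CiSCs over MEFs by 4.92 ± 0.38 (log2, adjusted p = 1.55e-04, edgeR). Ldb2, which encodes a cofactor of LIM homeodomain proteins, fell to 1.82 ± 0.326 CPM in CiSCs and 2.64 ± 0.420 CPM in MSCs, against 29.0 ± 7.42 CPM in MEFs. In the list of 9 LIM homeobox and cofactor genes, 5 were tested, and 2 rose and 2 fell in CiSCs against MEFs. Of all genes, 19.6% rose and 21.3% fell there. Lhx8, with 69 reads in MEFs and 1 in CiSCs, passed the filter on low counts only through MEFs. Lhx2, with 27 reads in CiSCs and 4 in MEFs, passed it only through CiSCs. Both had to differ, and the counts of the list are a description. Under a filter of at least 5 CPM in 2 libraries, 2 genes of the list were called. Of 7 nearest paralogs of the regulators, 4 were tested, among them Tcf24, a basic helix-loop-helix gene, at 3.0 ± 0.190 CPM in CiSCs, 15.4 ± 2.05 CPM in MSCs and 0.154 ± 0.00297 CPM in MEFs. Tcf24 rose in CiSCs over MEFs (4.23 ± 0.32, adjusted p = 1.49e-04, edgeR) and stayed below MSCs (-2.35 ± 0.21, adjusted p = 2.25e-04, edgeR), the same order of groups as Wt1.

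**Figure D3:**
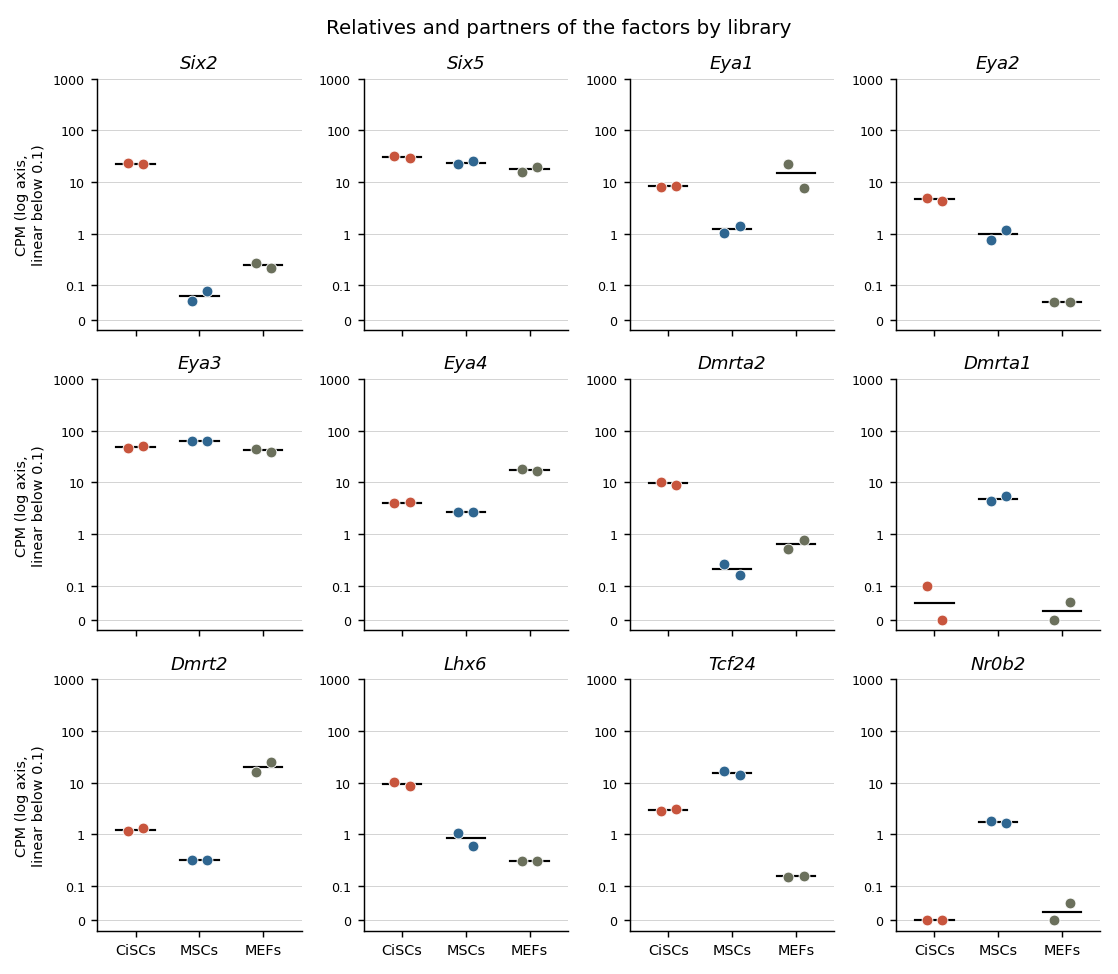
Level in CPM (y axis, logarithmic above 0.1 CPM and linear below it) of 12 relatives and partners of the regulators in CiSCs, MSCs and MEFs; points are libraries and bars group means. Six2, Eya2, Dmrta2 and Lhx6 are highest in both CiSC libraries, Dmrt2 and Eya4 in both MEF libraries.

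Other genes of gonad formation were compared next. Of 8 further genital ridge genes, 6 were tested; 3 rose and 2 fell in CiSCs against MEFs, where 40.9% of all genes were called, and 6 rose in MSCs against MEFs, where 22.5% of all genes rose. Gata4, a zinc finger factor needed for the ridge, had 4 reads in CiSCs, 252 ± 17.7 CPM in MSCs and 6 reads in MEFs. It passed the filter on low counts only through MSCs and so had to be higher there. Gata6, its relative, averaged 39.3 ± 0.543 CPM in CiSCs, 10.6 ± 2.37 CPM in MSCs and 1.43 ± 0.117 CPM in MEFs, and was higher in CiSCs than in MSCs by 1.89 ± 0.19 (log2, adjusted p = 3.98e-04, edgeR). Osr1, an odd-skipped factor of intermediate mesoderm, fell in CiSCs to 11.2 ± 0.652 CPM, against 30.0 ± 2.64 CPM in MEFs, and rose in MSCs to 61.5 ± 1.62 CPM.

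Of 14 testis determination genes, 13 were tested; 1 rose and 3 fell in CiSCs against MEFs, 7 rose and 2 fell in MSCs against MEFs, and 1 was higher and 7 lower in CiSCs than in MSCs. Of all genes, 40.9%, 42.5% and 42.8% were called in these comparisons. The 4 of 13 called in CiSCs against MEFs, 1 of them higher, are thus no more than the background. Dhh, Amh and Ptgds, with at most 14 reads in CiSCs and in MEFs, passed the filter on low counts only through MSCs. They had to differ from MSCs, so the counts in the comparisons with MSCs are a description. The gene that rose in CiSCs was Sox8, a partner of Sox9, with 26 reads in CiSCs, 382 in MSCs and 2 in MEFs (count ratio of CiSCs to MEFs 12, 95% interval 3.0 to 104, adjusted p = 0.00203, edgeR). Fgf9, a growth factor that sustains Sox9 in the fetal testis, fell in CiSCs, with 2 reads there, 16 in MSCs and 42 in MEFs. Dhh, the hedgehog ligand of Sertoli cells, had 8 reads in CiSCs, 42.2 ± 6.69 CPM in MSCs and 4 reads in MEFs. Sry, the testis-determining gene, had 0 reads in all libraries. Without the first MEF library 7 of these genes were called in CiSCs against MEFs (4 higher and 3 lower), 5 in MSCs against MEFs, all higher, when either MSC library was left out, and 5 in CiSCs against MSCs, all lower, without the first MSC library.

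Of 6 ovary genes, 5 were tested, and 1 rose and 3 fell in CiSCs against MEFs, where 19.6% of all genes rose and 21.3% fell (median log2 fold change -2.43 against 0.00 for all genes). Wnt4, a signal of ovary and kidney development, stood at 0.383 ± 0.00897 CPM in CiSCs, 72.0 ± 2.87 CPM in MSCs and 7.13 ± 2.34 CPM in MEFs. Foxl2, the granulosa cell factor that Dmrt1 represses in Sertoli cells, had 7 reads in CiSCs, 6 in MSCs and 0 in MEFs. Of 5 interstitial regulators, Nr2f2, which encodes COUP-TFII, rose in CiSCs (51.6 ± 4.30 CPM) and in MSCs (173 ± 9.10 CPM) over MEFs (22.2 ± 3.48 CPM). Maf fell in CiSCs (3.23 ± 0.417 CPM) against MEFs (62.8 ± 11.8 CPM), while MSCs (66.8 ± 2.65 CPM) against MEFs did not pass (0.09 ± 0.17 on the log2 scale, adjusted p = 0.705, edgeR). Maf is also a macrophage factor. Of 8 leukocyte markers, 8 fell in CiSCs and in MSCs against MEFs, where 21.3% and 20.0% of all genes fell. Their summed level was 8.98 to 14.7 CPM in CiSCs, 491 to 504 CPM in MSCs and 3840 to 5316 CPM in MEFs. The part of leukocytes in the Maf levels was not tested.

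Known target genes were set beside their regulators. Of 12 targets of Nr5a1, 8 were tested, and 7 were higher in MSCs than in MEFs and 0 lower, while in CiSCs against MEFs 1 was higher and 0 lower. Of all genes, 22.5% were higher in MSCs than in MEFs and 19.6% in CiSCs than in MEFs. Cyp11a1, Hsd3b1, Insl3 and Amh, with at most 10 reads in CiSCs and in MEFs, passed the filter only through MSCs and so had to differ there, and the count of 7 is a description. The side-chain cleavage enzyme gene Cyp11a1 had 4 reads in CiSCs, 783 ± 14.5 CPM in MSCs and 8 reads in MEFs, and the cholesterol carrier gene Star averaged 2.98 ± 0.709, 425 ± 1.87 and 2.13 ± 0.00482 CPM in the same order. The target that was higher in CiSCs was Mc2r, the ACTH receptor gene, with 13.1 and 13.4 CPM in CiSCs, 0.425 and 0.109 CPM in MSCs, and 0 and 0.104 CPM in MEFs. With 10 reads in MSCs and 2 in MEFs, Mc2r passed the filter only through CiSCs and so had to be higher there. Its count ratio to MEFs was 258 (95% interval 71.2 to 2140, adjusted p = 2.45e-04, edgeR). Nr5a1 had 0 reads in CiSCs, and a link between the 2 genes was not tested. In CiSCs against MEFs the number of targets called was 2 without the second MEF library (1 higher, 1 lower), 2 with CPM over library totals and 3 by DESeq2.

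Of 5 targets of Wt1, 4 were tested and 3 of them rose in CiSCs against MEFs, where 19.6% of all genes rose (median log2 fold change 2.63, or 1.40 with a gene at 0 in MEFs at its bound). Spry1, a feedback inhibitor of receptor tyrosine kinases, rose to 349 ± 28.1 CPM in CiSCs and 156 ± 9.67 CPM in MSCs, against 93.2 ± 3.06 CPM in MEFs. The growth factor gene Areg rose to 9.94 ± 3.14 CPM in CiSCs, against 0.972 ± 0.271 CPM in MEFs, and had 2 reads in MSCs, where Wt1 was highest. Podxl, the podocalyxin gene, had 6 reads in CiSCs, 8.26 ± 1.85 CPM in MSCs and 0 reads in MEFs, so that its call in CiSCs rests on 6 reads (at least 1.85-fold higher, adjusted p = 0.0413, edgeR). Amhr2, the receptor gene of anti-Müllerian hormone, had 3 reads in CiSCs, 50.4 ± 11.7 CPM in MSCs and 2 reads in MEFs.

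For each tested regulator the genes with the most similar course over the 6 libraries were sought by Euclidean distance between log2 CPM profiles centred on each gene's mean. With 3 groups of 2 libraries, such likeness mostly restates the order of the groups. Gata4 was nearest to Nr5a1 (distance 0.213), followed by the retinaldehyde dehydrogenase gene Aldh1a1 (0.827) and the collagen gene Col4a3 (0.897). Aldh1a1 (0.468), Mrap (0.920) and Gata4 (0.948) were nearest to Tcf21. The nearest genes were Myzap, Fxyd1 and Cadm4 for Wt1, Ppl, Nags and Rasd1 for Dmrt1, and Dtna, Fndc1 and Cd36 for Lhx9, whose nearest distance of 1.07 was the largest of the 8. They were Plscr1, Kcnip4 and Tcf4 for Cbx2, Pcdhgb5, Cmah and Spry2 for Six4, and Fnip2, Cdt1 and Serpina3g for Emx2. Spry2, a relative of Spry1, averaged 336 ± 17.2 CPM in CiSCs, 86.4 ± 2.42 CPM in MSCs and 72.2 ± 40.6 CPM in MEFs. Pcdhgb5 belongs to a gene cluster with shared exons, so its level is uncertain. With Pearson's correlation in place of distance, the same gene was again among the 3 nearest at 5 of the 24 places.

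The MSC libraries carried the markers of the labelled cell type, with 9 of 11 Sertoli cell markers at 1 CPM or more, although the hormone receptor gene Fshr and the homeobox gene Rhox5 had 8 and 20 reads. In CiSCs 5 of the 11 reached 1 CPM and in MEFs 4. Of the 9 tested, 2 were higher in CiSCs than in MEFs and 7 did not pass. Of all genes, 19.6% were higher in that comparison, so the 2 of 9 are near the background. The summed level of 4109 to 4838 CPM in CiSCs came mostly from Clu, the secreted chaperone clusterin, at 4377 ± 505 CPM; it was 6036 to 8967 CPM in MSCs and 97.8 to 109 CPM in MEFs. Myoid, endothelial and leukocyte markers were also present in MSCs. Genes that differed over 2-fold between the libraries of a group, among the tested genes, numbered 477 in CiSCs, 415 in MSCs and 1416 in MEFs.

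**Figure D4:**
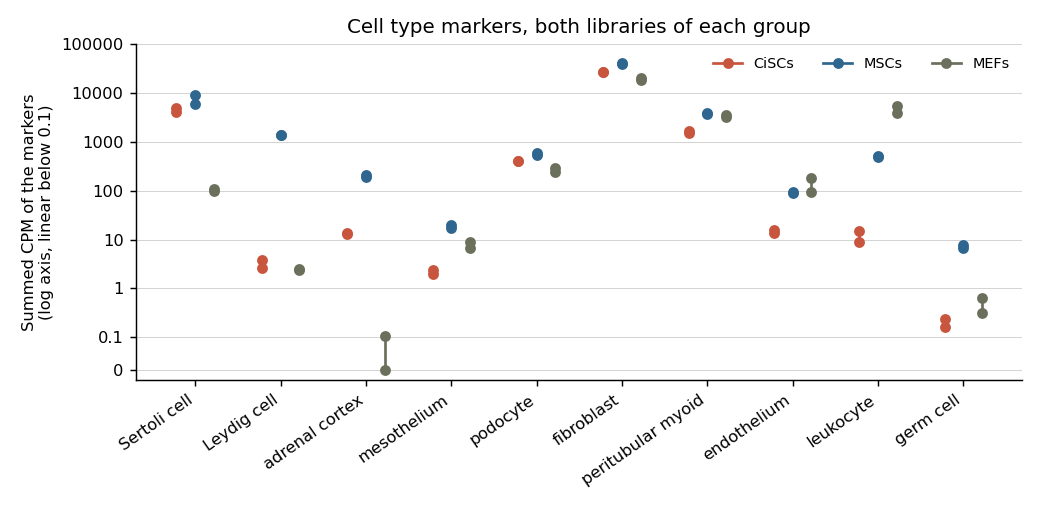
Summed CPM of the markers of 10 cell types (y axis, logarithmic above 0.1 CPM and linear below it); the 2 points of a colour are the lower and the higher library of CiSCs, MSCs or MEFs. Leydig cell and adrenal markers are high in MSCs, and leukocyte markers in MEFs.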

How the data were processed

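RNA sequencing data of 6 libraries (2 each of CiSCs, MSCs and MEFs) were analysed from the expected counts per gene that the authors deposited in 1 file per library. HISAT and the mouse build mm9 are named per the submitters' processing notes; the counting program, annotation, strand and any filter are not given in the sources used here. Of 20007 identifiers, 18891 matched a symbol in a RefSeq table of GRCm38.p6. Between 42.0% and 43.8% of a library's values were not whole (tolerance 1e-09). Counts were rounded, filtered (filterByExpr), scaled with TMM and fitted in edgeR 4.0.16 (R 4.3.3), with 1 mean per group over all 6 libraries and 3 residual degrees of freedom, leaving 15272 genes. Tests were two-sided, with Benjamini-Hochberg adjusted p under 0.05 as the threshold. Standard errors were taken from the F values, and log2 CPM used a prior count of 2. The fit was tested on simulated data.

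The 9 genes, the gene and marker lists and the naming rule were chosen with earlier results of these data known. The rule named the 9 genes, up to 4 genes per list and comparison in order of adjusted p (the 2 most abundant where none passed), and the 3 genes nearest in profile to each tested member. Cbx8, Dmrt3, Dmrtb1, Dmrtc2, Six6, Sry, Foxl2 and single cell type markers were named after their values were seen. Alternatives were each library left out, a block for the replicate number, a fit on the compared groups alone, median-ratio size factors, DESeq2 1.42.0, no or a stricter filter, unrounded counts and, added after the data were seen, library totals without TMM factors. Some members of the gene lists are not reported here by name, but remain in the counts.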

Additional observations from a re-analysis of the deposited data

How the results depend on the processing

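The number of regulators called (5 of 8 for CiSCs against MEFs, 6 for MSCs against MEFs and 7 for CiSCs against MSCs) moved by less than 1.5 times under every alternative run. Over all genes, leaving out 1 library gave 3395 to 9487 calls for CiSCs against MEFs, 3516 to 9745 for MSCs against MEFs and 3910 to 9369 for CiSCs against MSCs. The replicate numbers share no stated source, and deviations of same-numbered libraries correlated at -0.215, 0.138 and -0.129 in these comparisons; with the replicate block 5468, 5672 and 5814 genes and 5, 6 and 7 regulators were called. Differences that had not passed changed sign or went to 0 as follows, and the cause was not tested. For MSCs against MEFs, Cbx2 ranged from -0.23 to 0.05 and Six4 from -0.42 to 0.64 on the log2 scale with 1 library left out, and Six4 was -0.09 with library totals. For CiSCs against MEFs, the fitted value of Dmrt1 ranged from 0 to 4.52 and that of Tcf21 from -3.18 to 0 with 1 library left out, where the deciding library held all their reads. Among values of single regulators, 316 kept direction and side of the threshold, 9 changed sign or went to 0, 6 lost and 2 gained a call. With 2 libraries a group and a few reads for Nr5a1, Dmrt1, Tcf21 and Nr0b1 in CiSCs and MEFs, differences between those 2 groups could not be resolved.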
